A study of Mus musculus with 17 samples.

Results

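Hba-x is the mouse embryonic zeta-globin gene, and it is described here as a 5 kb window on chromosome 11 from 32174500 to 32179500 of mouse genome build mm9, seen from an enhancer and from a boundary of the alpha-globin locus. The method was Tri-C, which cuts cross-linked chromatin with NlaIII, joins the ends that lie close together and pulls down the products that hold a chosen viewpoint fragment. Each entry of the deposited tables is a pair of other NlaIII fragments found together with that viewpoint, with its read count in each library. A contact pair was a member if the midpoint of at least 1 of its fragments lay in the window, a choice made by position and not by any measured value. There were 5953 members among 514959 fragment pairs from the R2 enhancer and 3737 among 448951 from the alpha CTCF viewpoint, and they drew on the same number of NlaIII fragments, 31, in both tables. These members held 29476 and 16609 counts. The 5 kb upstream (32169500 to 32174500) and downstream (32179500 to 32184500) of the window served as flanks.

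Erythroid cells, 10 libraries, were Ter-119+ cells of the spleens of female C57BL/6 mice that had received phenylhydrazine, a drug that destroys red cells and fills the spleen with erythroblasts. Embryonic stem (ES) cells, 7 libraries, were the E14 line, of strain 129/Ola, in which the alpha-globin locus is silent. Ter-119 is a surface antigen of maturing erythroid cells, and no expression data bear on the identity of either population here. Technical replicates were summed, giving 3 biological replicates of each cell type; each difference between them is also one between strains, and the 2 cannot be told apart, while all the ES replicates are of a single line. The labels do not say whether the biological replicates are separate animals or cultures, so the p-values may measure only technical spread.

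Zeta-globin pairs with embryonic beta-like globins in the haemoglobin of primitive red cells made in the yolk sac, and the gene is switched off in definitive erythroid cells, where Hba-a1 and Hba-a2, the adult genes, are used. In the mouse, Hba-x lies between the enhancer cluster of the locus, most of which sits in introns of the neighbouring gene Nprl3, and the adult genes. R1 and R2 are the strong enhancers of that cluster, R3, Rm and R4 are weaker members, and the CTCF sites named for their distance in kb from Hba-x flank the locus. The comparison asks how far a gene that is silent in adult erythroid cells, but that lies inside the active domain, meets the enhancer there and in cells in which the whole locus is silent.

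The sequence is shown because NlaIII cuts at CATG, so that these letters set the resolution of every value below and place the gene on the fragments. The 250 bases before the RefSeq transcription start of Hba-x (GRCm38.p6, chr11:32276350-32276599, plus strand) are printed 5′ to 3′ with the NlaIII sites in capitals, followed by those of Hba-a1 (chr11:32283422-32283671, plus strand), the adult gene next downstream.
Hba-x: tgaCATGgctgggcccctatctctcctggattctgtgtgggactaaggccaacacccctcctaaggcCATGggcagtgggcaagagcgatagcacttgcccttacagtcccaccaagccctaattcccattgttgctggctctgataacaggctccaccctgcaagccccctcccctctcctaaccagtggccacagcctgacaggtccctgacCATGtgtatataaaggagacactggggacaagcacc
Hba-a1: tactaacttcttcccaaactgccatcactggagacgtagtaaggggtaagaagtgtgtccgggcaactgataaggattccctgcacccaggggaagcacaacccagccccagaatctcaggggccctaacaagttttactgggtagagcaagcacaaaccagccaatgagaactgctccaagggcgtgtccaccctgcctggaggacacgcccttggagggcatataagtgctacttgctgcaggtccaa
The stretch before Hba-x held 3 NlaIII sites, at -247, -183 and -36 relative to the start, and that before Hba-a1 held 0. CATG was found in 53.9% of 32851 mouse promoter stretches of this length. The spacings of the Hba-x sites, 64 and 147 bases, matched a single pair of neighbouring fragments among those listed on chromosome 11, 32176355 to 32176418 and 32176419 to 32176565 in mm9. The transcription start then fell 36 bases into the next fragment, 32176566 to 32176664, which is 99 bp long. Upstream of it lay 11 of the 31 fragments (2.14 kb), and 20 (2.98 kb) held or followed the start.

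The stretch before Hba-x held 1 match to TGATAA or AGATAA, the core recognised by GATA factors, at -108 (16.6% of all stretches held either, on either strand), 2 to CACCC at -198 and -95 (52.0%) and 1 to TATAAA at -28 (12.4%). It held 0 matches to CCAAT (33.8%). Such a match describes the letters and is no evidence of binding. Hba-a1 and Hba-a2 are near-identical copies: their 300-base RefSeq promoter entries share an unbroken run of 297 bases. Hba-x and Hba-a1 share no run longer than 10 bases. No source used here says how the authors' alignment split reads between the adult copies, so contacts of Hba-a1 and Hba-a2 are uncertain in a way that those of Hba-x are not.

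Replicates held 139337 to 469501 counts from R2 and 129858 to 459669 from alpha CTCF. From R2, 42.2% to 56.4% of an erythroid replicate's counts joined fragments that both lay off chromosome 11, against 12.9% to 23.4% in ES cells. Pairs with both fragments within 150 kb of R2 made up 12.99% to 21.2% of the erythroid and 29.6% to 45.1% of the ES counts. Levels are therefore given on 2 scales, per 1000 counts of the whole table, which was the planned main scale, and per 1000 pairs within 150 kb of the viewpoint, which measures Hba-x against its locus. The 3 first technical replicates of the erythroid samples stand apart, with 1.71 to 2.08 counts per Hba-x pair from R2 against 3.75 to 5.43 in the other 7 erythroid libraries. Their Hba-x level on the locus scale, 88.8 to 98.2, lay in the range of the others, 88.7 to 99.6.

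From R2, Hba-x made up the same share of the whole table in both cell types within error. Relative to the number of pairs within 150 kb, its level was higher in erythroid cells. On that scale an Hba-x pair counts wherever its partner lies, so the level is not a share of those pairs. Per 1000 counts of the table, erythroid replicates had 14.5, 12.0 and 19.5 Hba-x contact pairs. ES replicates had 16.8, 18.4 and 15.0. The groups overlapped, and the log2 difference of erythroid over ES cells was -0.13 (SE 0.22, edgeR adjusted p = 0.570). Most of the locus behaved otherwise on this scale: of 60 bins of 5 kb within 150 kb of R2, 4 rose in erythroid cells (6.67%) and 52 fell (86.7%), with a median log2 difference of -2.37. Hba-x was 1 of the 4 bins that did neither.

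Per 1000 pairs within 150 kb, the erythroid replicates had 91.5, 92.7 and 91.9 Hba-x pairs. The ES replicates had 56.6, 40.9 and 50.4, so that every erythroid value lay above every ES value. The erythroid level rose by 0.90 on the log2 scale (SE 0.19, edgeR adjusted p = 2.22e-05), from 49.3 ± 7.94 to 92.0 ± 0.576 (SD, n = 3). On this scale 9 of the 60 bins were higher in erythroid cells (15.0%), and Hba-x ranked 6th of 60 from the most positive difference down. The median bin was at -1.38, and 42 bins were lower. Scaling factors estimated from the bins themselves moved this split further, to 20 higher and 30 lower with TMM and 22 and 19 with DESeq2, and put Hba-x itself at 1.74 and 2.06. The rise was 0.79 when only pairs lying wholly inside the 150 kb were counted and 0.85 when a fragment pair's reads in a library counted as 1.

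**Figure D1:**
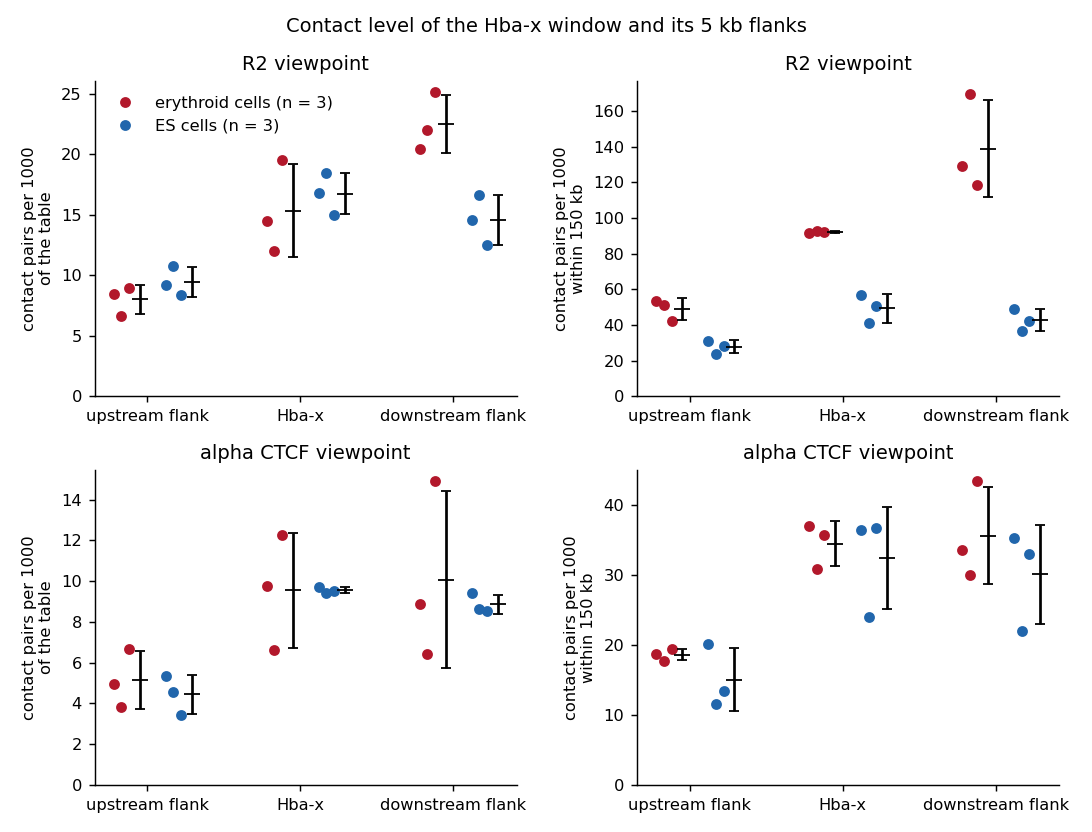
Contact pairs of the Hba-x window and its 5 kb flanks from R2 (top) and alpha CTCF (bottom), per 1000 counts of the table (left) and per 1000 pairs within 150 kb of the viewpoint (right); points are biological replicates, bars the mean and SD (n = 3). Per pairs within 150 kb of R2, the 3 erythroid replicates of Hba-x sit at 91.5 to 92.7, all above the ES replicates, and the downstream flank of the erythroid cells is higher still.

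In erythroid cells the level of Hba-x lay between those of its flanks. The upstream flank, which holds part of R4, had 48.9 ± 5.96 pairs per 1000 within 150 kb in erythroid cells against 27.7 ± 3.59, a log2 difference of 0.82 (SE 0.22). The downstream flank, which holds part of the Hba-a1 window, had 139 ± 27.1 and 42.7 ± 6.20, a log2 difference of 1.70 (SE 0.19). If the RefSeq starts of Hba-x and Hba-a1 are spaced in mm9 as in GRCm38, that of Hba-a1 lies in this flank's last kb. The rise was not steady from the enhancer side to the adult genes. The bin of Rm and R4, just before the upstream flank, had means of 87.0 in erythroid and 31.5 in ES cells, a log2 difference of 1.47 (SE 0.20). Both flanks passed the edgeR test on this scale, as Hba-x did, and the downstream flank was also among the 4 bins that rose per table total (0.63, SE 0.22, edgeR adjusted p = 0.00436).

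A ratio inside a replicate needs no scaling. The log2 ratio of Hba-x to the mean of its flanks was 0.01, -0.25 and 0.20 in the erythroid replicates. It was 0.50, 0.43 and 0.52 in the ES replicates. All ES values lay above all erythroid values, and the group means differed by -0.50 (exact permutation test, two-sided p = 0.1, the smallest that 3 against 3 allows).

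The difference came with the downstream flank. Over that flank, Hba-x had a log2 ratio of -0.58 ± 0.26 in erythroid and 0.20 ± 0.06 in ES cells (exact permutation p = 0.1). Over the upstream flank it had 0.92 ± 0.18 and 0.83 ± 0.05, and the groups overlapped (exact permutation p = 0.6). Hba-x thus had fewer contact pairs than the flank that holds part of the Hba-a1 window in erythroid cells, and more in ES cells. It had more than the flank that holds part of R4 in both. These levels are not corrected for the number of NlaIII fragments, which is shared by both cell types. Steps of 1 kb held 5 to 8 fragments in the window, against 1 to 5 upstream and 1 to 7 downstream. Levels per fragment were not compared. The level of the downstream flank carries the uncertainty between the adult copies given above, and so does the ratio over it.

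**Figure D2:**
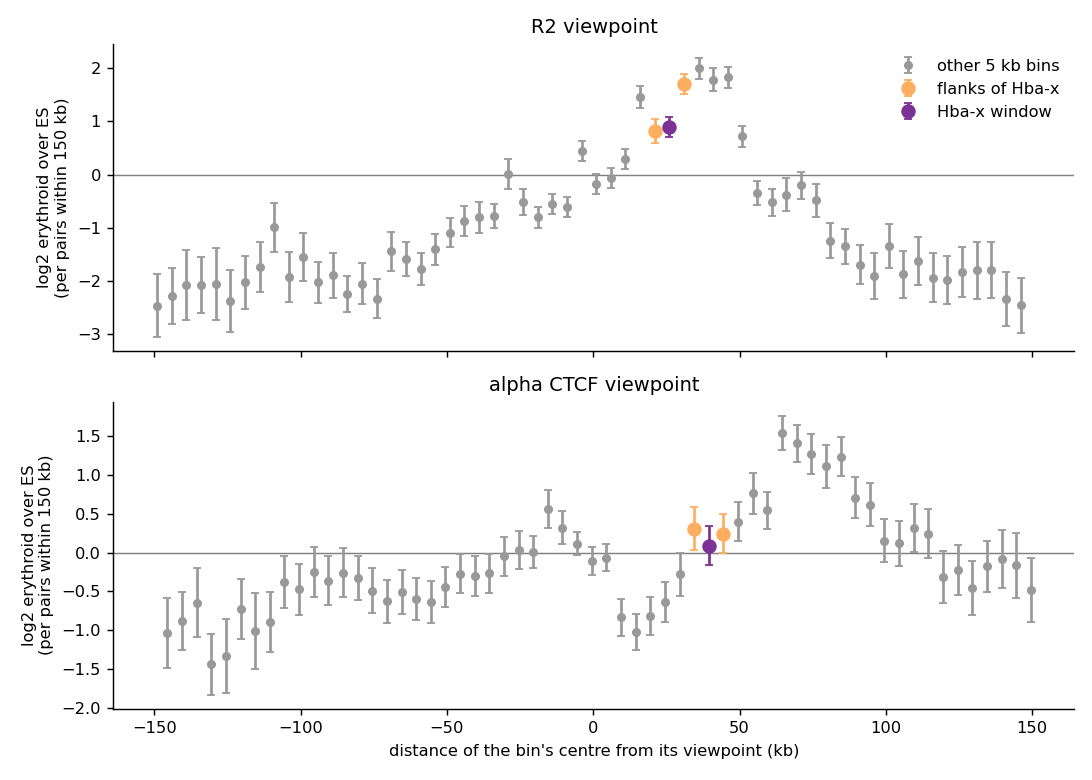
Log2 difference of erythroid over ES cells for each 5 kb bin, per pairs within 150 kb of R2 (top) or alpha CTCF (bottom), against the distance of the bin from its viewpoint; bars are standard errors of the edgeR fit. From R2, Hba-x at 0.90 lies between its flanks at 0.82 and 1.70, below the adult genes. The bin of Rm and R4, just before the upstream flank, is at 1.47.

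In steps of 1 kb, fragment contacts per 1000 pairs within 150 kb of R2 were uneven along the window and flanks, and the erythroid mean was above the ES mean in every step. The first kb of the upstream flank had 5.06 ± 1.66 in erythroid and 2.18 ± 0.631 in ES cells. The third kb of the Hba-x window had 28.7 ± 2.59 and 17.04 ± 0.888, and the last kb of the downstream flank 76.7 ± 9.97 and 18.6 ± 1.29. The log2 ratio of the means was 0.57 to 1.20 in the 5 steps of the window and 2.04 to 2.13 in the last 3 steps of the downstream flank. The number of NlaIII fragments per step ran from 1 to 8 and sets part of each level, but it is shared by both cell types.

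**Figure D3:**
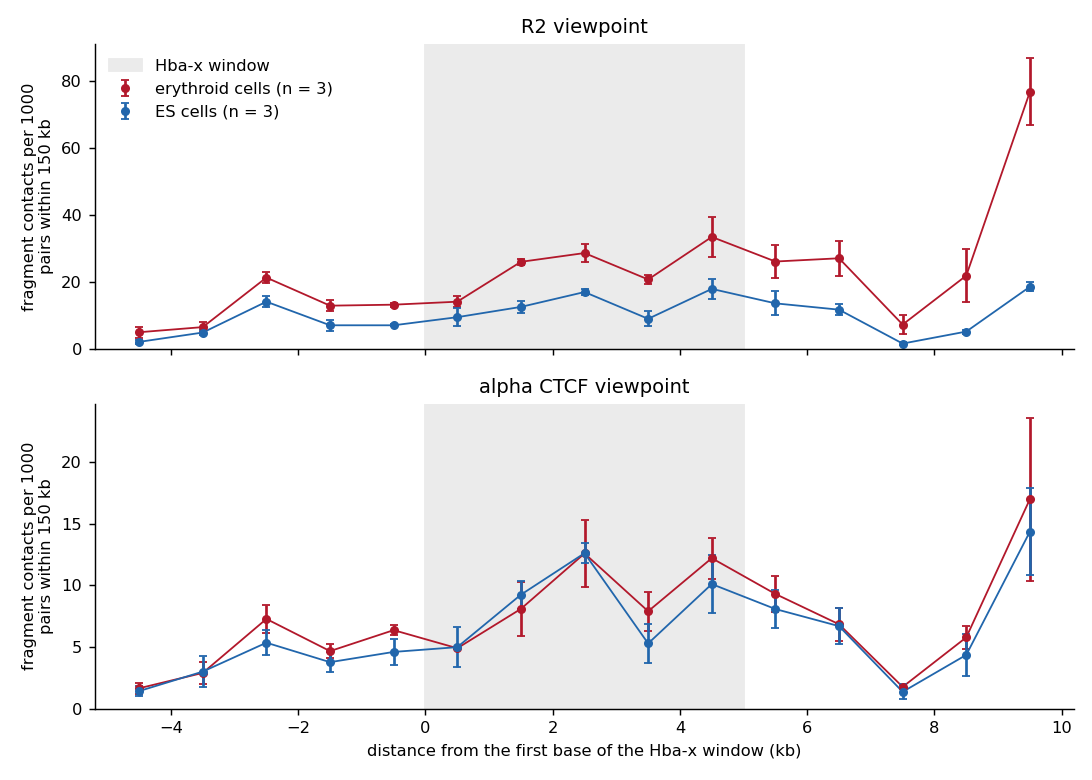
Fragment contacts per 1000 pairs within 150 kb of R2 (top) or alpha CTCF (bottom) in 1 kb steps over the Hba-x window (shaded) and its flanks, as mean and SD of 3 biological replicates. From R2 the erythroid mean is higher in every step, by the largest absolute amount in the last kb of the downstream flank (76.7 against 18.6), and from alpha CTCF the lines run close together.

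The 5 fragments of the window with the most counts from R2 lay on both sides of the start. The fragment 32176200 to 32176354, centred at -325 bp from the start, had 5.83, 6.31 and 6.34 contacts per 1000 pairs within 150 kb in erythroid cells. It had 3.64, 2.86 and 2.22 in ES cells. It rose by 1.08 on the log2 scale (SE 0.30, edgeR adjusted p = 0.0117), with no overlap between the groups. It did not pass without ES replicate 3 (edgeR adjusted p = 0.0674) or without the first technical replicates (0.0502).

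Fragment 32178845 to 32178962, 2302 bp past the start, had 6.999, 5.22 and 6.67 contacts in erythroid cells. ES cells had 3.33, 3.04 and 2.55. It rose by 1.08 (SE 0.29, edgeR adjusted p = 0.01004), and the groups did not overlap. It did not pass without erythroid replicate 1 (edgeR adjusted p = 0.0502) or ES replicate 3 (0.0516). Fragment 32177737 to 32177967, 1250 bp past the start, had 6.31, 5.32 and 5.29 in erythroid cells. ES cells had 3.50, 1.13 and 1.83. It rose by 1.38 (SE 0.35, edgeR adjusted p = 0.00644). The remaining pair of the 5, neighbours at 32176775 to 32176862 and 32176863 to 32177016, had log2 differences of 0.72 (SE 0.31) and 0.50 (SE 0.30) and did not pass (edgeR adjusted p = 0.0897 and 0.206).

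Over all 31 fragments, each of which reached the minimum of 50 counts, 12 rose on the locus scale and 0 fell. Of 1379 fragments tested within 150 kb of R2, 8.63% rose. The 31 log2 differences ran from 0.28 to 1.55 with a median of 0.93, against a median of -0.996 for all fragments tested. The count of calls depended on single replicates: it was 7 without erythroid replicate 1, 7 without erythroid replicate 3, 6 without ES replicate 1 and 4 without ES replicate 3. It was 3 without the first technical replicates and 23 when a fragment pair's reads in a library counted as 1. The shares called over all fragments in these fits were not worked out. The fragment with the start had 0.36 (SE 0.33), between 1.12 on the fragment just before it and 0.55 on the one after it. Differences between fragments were not tested. Per kb, the stretch before the start had 18.8 ± 1.25 contacts in erythroid cells against 10.3 ± 1.55. The stretch from the start onward had 27.8 ± 2.14 against 14.8 ± 1.62, with log2 differences of 0.87 and 0.91 (exact permutation p = 0.1 each). Per table total, 0 of the 31 fragments passed the edgeR test (0 also at an unadjusted p under 0.05), where 52.9% of the 1379 did. The median of the 31 was -0.10 against -2.01 for all. DESeq2 with its own size factors called 25 of the 31, and the share that it called over all fragments was not worked out.

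**Figure D4:**
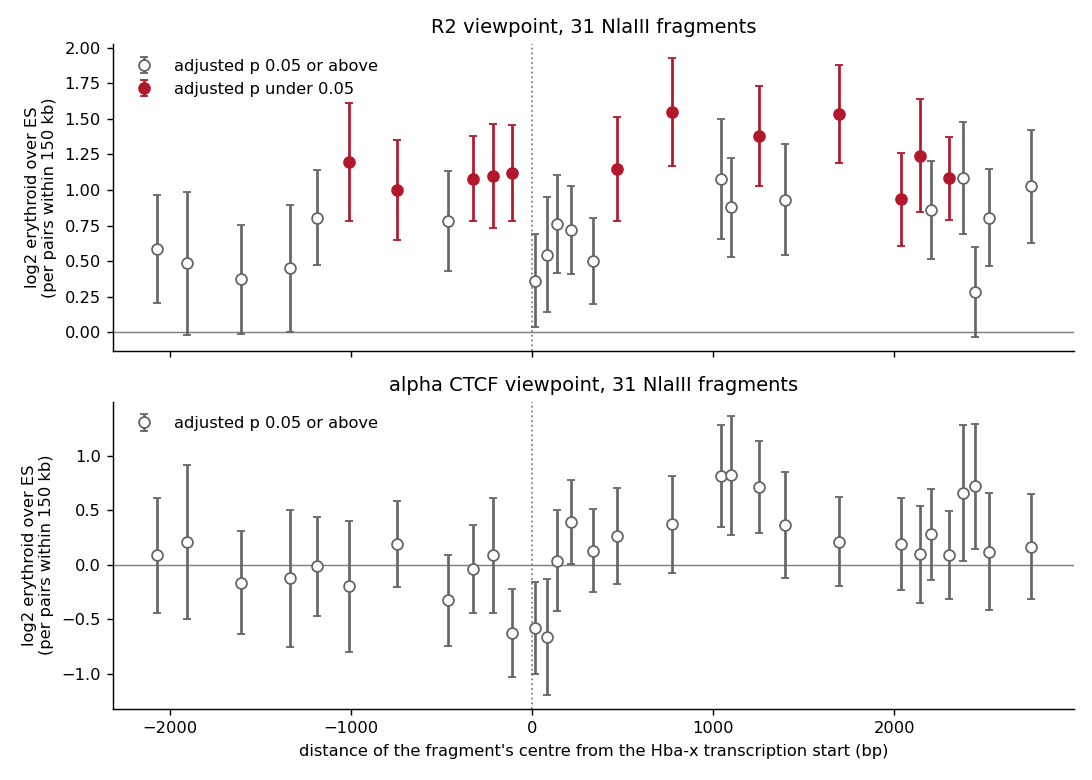
Log2 difference of erythroid over ES cells for the 31 NlaIII fragments of the Hba-x window, per pairs within 150 kb of R2 (top) or alpha CTCF (bottom), against the distance of the fragment from the Hba-x transcription start; bars are standard errors of the edgeR fit. From R2 all 31 lie above 0 and 12 passed the test; from alpha CTCF 0 passed.

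The partners of Hba-x, the other fragments in the same 3-way contact, were mostly close. From R2, 33.7% ± 5.91 of the erythroid and 35.6% ± 14.4 of the ES pairs joined fragments inside the Hba-x window. Partners elsewhere within 150 kb of R2 made up 35.9% ± 2.26 and 40.1% ± 6.78, and those elsewhere on chromosome 11 13.1% ± 1.30 and 16.4% ± 5.27. In ES replicate 2 the share inside the window was 52.1%, against 25.9% and 28.9% in the other ES replicates.

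Partners on other chromosomes were the class whose groups did not overlap. They made up 18.8%, 19.5% and 13.4% of the pairs in erythroid cells. In ES cells they made up 8.67%, 5.29% and 9.78%. The means differed by 9.34 percentage points (exact permutation p = 0.1, adjusted p = 0.8 over 8 comparisons), in the same direction as the off-chromosome counts of the whole table given above, whose part in this was not tested. From alpha CTCF this class held 11.3%, 14.3% and 9.37% of the erythroid and 9.25%, 10.8% and 9.98% of the ES pairs, and the groups overlapped.

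Pairs of directly neighbouring fragments formed a large part of the contacts inside the window. They made up 64.8% ± 3.50 of the pairs inside it in erythroid and 70.5% ± 1.02 in ES cells from R2 (exact permutation p = 0.1), and 68.8% ± 2.84 and 65.5% ± 2.71 from alpha CTCF. The fragment pair with the most counts in both cell types from R2 joined 32176775 to 32176862 with 32176863 to 32177016, with 244 erythroid and 233 ES counts. The next joined 32176200 to 32176354 with 32176355 to 32176418 (225 and 177 counts). The third was 32178723 to 32178765 with 32178766 to 32178844 in erythroid cells (214 counts) and 32177664 to 32177736 with 32177737 to 32177967 in ES cells (176 counts). From alpha CTCF, the leading pair in erythroid cells was the same one (156 counts, 49 in ES cells), and in ES cells it joined the fragment with the start to the next, 32176665 to 32176697 (86 counts, 128 in erythroid cells). Neighbours that were never cut apart and neighbours that were cut and rejoined look alike in the tables. Without all pairs of neighbouring fragments, the rise of Hba-x on the locus scale was 0.85 (edgeR adjusted p = 5.64e-06).

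Named elements of the locus met Hba-x and R2 together in both cell types. R1, the enhancer on the far side of R2 from Hba-x, was the partner of 10.2%, 6.30% and 7.33% of the erythroid Hba-x pairs with a partner within 150 kb. In ES cells it was the partner of 2.76%, 9.28% and 3.44%. These groups overlapped through ES replicate 2.

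R3, between R2 and Hba-x, was the partner of 5.29% ± 0.965 and 6.15% ± 0.960. Rm and R4, the members of the cluster nearest to Hba-x, had 4.03% ± 1.09 and 2.19% ± 0.246 in erythroid cells. In ES cells they had 2.60% ± 1.73 and 2.32% ± 2.33. The order of the enhancers by mean share was R1, R3, Rm and R4 in erythroid cells. Of neighbours in that order, R1 and R3 overlapped and so did R3 and Rm, while Rm and R4 did not.

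Hba-a1 was the partner of 4.48%, 3.47% and 7.40% of the erythroid pairs. The ES shares were 1.24%, 3.13% and 4.01%. Hba-a2 had 3.48% ± 1.41 and 1.84% ± 0.886. Among the CTCF sites, CTCF -38/-39 had 1.79% ± 1.07 and 2.52% ± 1.01, CTCF +44 0.302% ± 0.366 and 0.924% ± 0.663, and CTCF +48 0.352% ± 0.322 and 0.423% ± 0.406. The pairs with CTCF +44 and CTCF +48 rest on only 62 and 53 counts, each with 0 in erythroid replicate 1.

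Per table total, 0 of the 9 element pairs with Hba-x passed the edgeR test, where 4 of the 43 element pairs of the R2 table did (9.3%). The 9 edgeR adjusted p ran from 0.378 to 0.910, and DESeq2 also called 0. On the locus scale 1 of the 9 rose, that with R1, by 1.56 (SE 0.41, edgeR adjusted p = 0.0253), where 16.3% of the 43 rose. The call for R1 did not hold without erythroid replicate 1 (edgeR adjusted p = 0.175), erythroid replicate 2 (0.0661), ES replicate 1 (0.0775) or ES replicate 3 (0.0515). Hba-a1 had 1.64 (SE 0.54, edgeR adjusted p = 0.0623) and Hba-a2 1.49 (SE 0.66, edgeR adjusted p = 0.132). These pairs rest on 665, 457 and 337 counts for R1, Hba-a1 and Hba-a2.

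**Figure D5:**
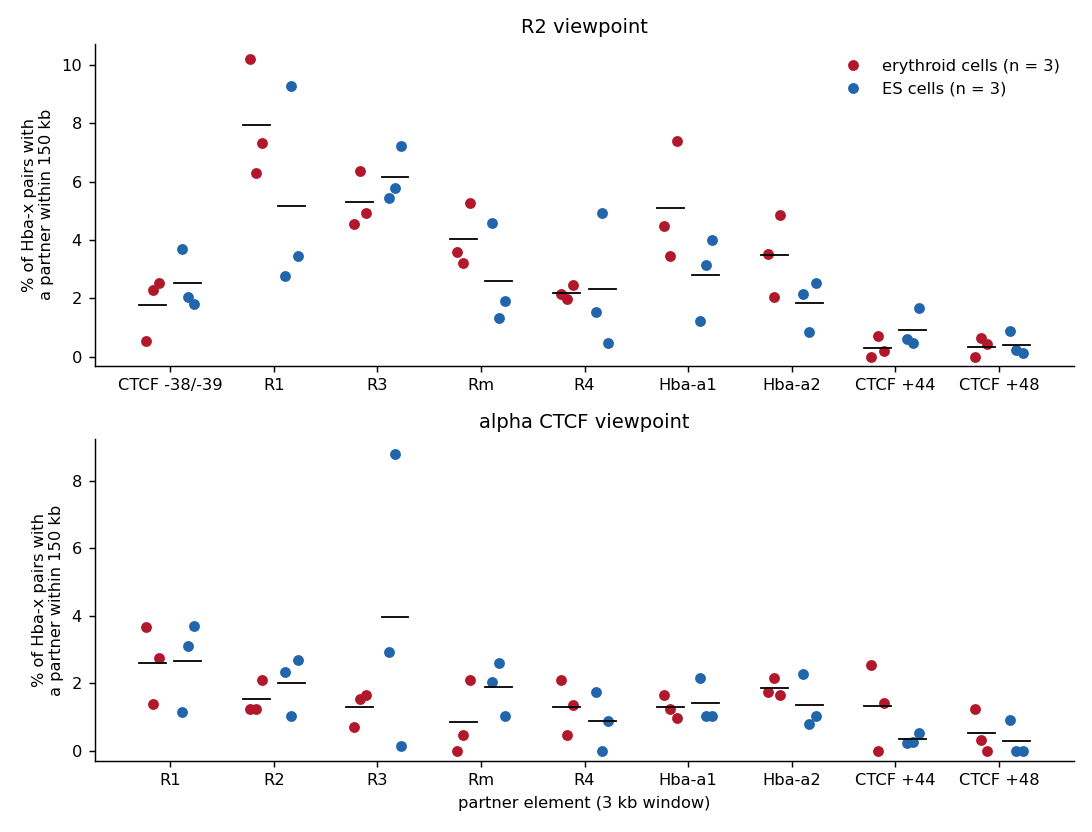
Share of the Hba-x pairs with a partner within 150 kb of the viewpoint that each named element took, from R2 (top) and alpha CTCF (bottom); points are biological replicates and lines their means (n = 3). R1 is the element with the highest mean share in erythroid cells from R2 (7.95%), and the cell types overlap for most elements.

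By 5 kb bin, 38 partner bins of Hba-x from R2 reached 30 counts. Per table total, 0 rose in erythroid cells (1.45% of all 761 bin pairs did) and 6 fell (38.2% of all did). Each of the 6 had fewer than 30 erythroid counts and so reached the minimum only through ES cells, where it is high. Their falls are given as counts, with no test read from them. Those whose replicate groups did not overlap were centred 59 kb before R2 and 61 and 86 kb past it.

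The bin at -59 kb (32089500 to 32094499) had 2, 0 and 0 counts with Hba-x in erythroid and 40, 13 and 30 in ES cells. The bin at 61 kb (32209500 to 32214499) had 2, 5 and 10 counts in erythroid and 77, 18 and 18 in ES cells. The bin at 86 kb (32234500 to 32239499) had 3, 0 and 3 counts against 42, 15 and 7. All lie outside the stretch from the enhancers to the adult genes. The count of 6 was 3 without erythroid replicate 2 and 2 without ES replicate 1, and the shares over all bin pairs in these fits were not worked out.

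On the locus scale 7 of the 38 partner bins rose (6.04% of all bin pairs did) and 2 fell (11.7% did), both of them among the 6 that reached the minimum through ES cells alone. The 5 largest rises among those with no overlap between the groups were in the bins of Hba-a2 (1.82, SE 0.56), the downstream flank (1.48, SE 0.42), Rm and R4 (1.43, SE 0.54), the upstream flank (1.33, SE 0.42) and R1 (1.23, SE 0.42). The edgeR adjusted p of these ran from 0.00601 for the downstream flank to 0.0452 for the bin of Rm and R4. Hba-x paired with itself rose by 0.88 (SE 0.28), close to the 0.90 of the whole window. The 9 calls became 4 without erythroid replicate 1, erythroid replicate 3 or ES replicate 3, and 2 without erythroid replicate 2 or ES replicate 1. They were 4 without the first technical replicates. The shares over all bin pairs were not worked out for these fits either.

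The partners of Hba-x were also set against those of its flanks within the same replicates, as shares of the pairs whose partner lay within 150 kb but outside window and flanks. The bin of Hba-a2 took 8.65% ± 1.71 of the Hba-x partners in erythroid cells and 42.5% ± 1.99 of the flank partners. In ES cells it took 3.23% ± 1.05 and 34.0% ± 9.20. The log2 difference of Hba-x over the flanks was -2.31 (SE 0.26) in erythroid and -3.37 (SE 0.28) in ES cells (edgeR adjusted p = 9.15e-14 and 1.19e-22). Against the upstream flank alone it was 0.68 and -0.28, with no call. The downstream flank holds part of the window of Hba-a1, the near-identical copy of Hba-a2.

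Of 42 partner bins from R2, 1 passed in erythroid (2.38%) and 2 in ES cells (4.76%), and 0 passed for the difference between the cell types (0.0%, edgeR; 2 at an unadjusted p under 0.05). The second in ES cells was the bin of Rm and R4, at 5.45% ± 3.59 of Hba-x and 1.58% ± 0.747 of flank partners (log2 1.64, SE 0.51, edgeR adjusted p = 0.0317). In erythroid cells that bin took 9.04% ± 0.459 and 3.69% ± 0.663. These values are shares, so the large flank share of the Hba-a2 bin lowers the flank share of every other bin. How far that raised the value of the bin of Rm and R4 was not tested. Set against the upstream flank alone, 0 bins passed. The Hba-a2 bin passed in both cell types in each of the 6 fits that left out a replicate. The number of bins called in either cell type, 2, was 1 when any single erythroid replicate or ES replicate 1 was left out, and 7 without ES replicate 2.

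Bins were ranked by how closely their R2 contact level moved with that of Hba-x over the 6 replicates, flanks left out. The first were those at 36 kb (Pearson r = 0.98), 41 kb (r = 0.98) and 46 kb (Hba-a2; r = 0.97) from R2, on the log2 scale per pairs within 150 kb. The bin at 36 kb holds only part of the Hba-a1 window, and the rest of that window lies in the downstream flank. The 6 points fall into the 2 cell types and share their libraries, so that these values describe the split between cell types and carry no p.

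From alpha CTCF, a viewpoint overlapping the CTCF -38/-39 element on the far side of the enhancers, Hba-x had the same level in both cell types within error on either scale. Per 1000 counts of the table it had 9.76, 6.64 and 12.2 pairs in erythroid cells. The ES replicates had 9.71, 9.43 and 9.50. The ES replicates lay between the erythroid ones, and the log2 difference was 0.0004 (SE 0.21, edgeR adjusted p = 0.999). Of the 60 bins from this viewpoint, 56.7% passed the test in either direction.

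Per 1000 pairs within 150 kb of alpha CTCF, Hba-x had 37.0, 30.9 and 35.7 in erythroid cells. In ES cells it had 36.5, 24.0 and 36.8. The log2 difference was 0.09 (SE 0.25, edgeR adjusted p = 0.774), where 11.7% of the bins were higher in erythroid cells and 8.33% lower. The flanks had 0.31 (SE 0.28) upstream and 0.25 (SE 0.25) downstream.

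The ratio to the flanks was 0.35 ± 0.16 in erythroid and 0.53 ± 0.13 in ES cells from alpha CTCF, a difference of -0.17 (exact permutation p = 0.2). The change of the ratio from R2 differed from that from alpha CTCF by -0.33 (exact permutation p = 0.3), so a difference between the viewpoints was not shown for the mean of both flanks. Over the downstream flank alone it was -0.64 (exact permutation p = 0.1).

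Hba-x met R2 more than alpha CTCF in all 6 replicates, where each table is scaled to its own pairs within 150 kb. The log2 ratio of the R2 to the alpha CTCF level was 1.31, 1.58 and 1.36 in erythroid cells. In ES cells it was 0.64, 0.77 and 0.45. The groups did not overlap and differed by 0.80 (exact permutation p = 0.1). Per table total the ratio was 0.70 ± 0.15 and 0.81 ± 0.15 (exact permutation p = 0.5). Hba-x lies 26 kb from R2 and 39.5 kb from alpha CTCF, and the tables were scaled separately.

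The fragment profile from alpha CTCF had its highest counts around the start, on 32176419 to 32176565 (1040 counts) just before it and on 32176863 to 32177016 (1026) after it. The other leading fragments were the one with the start (998 counts), 32178845 to 32178962 (972) and 32176775 to 32176862 (953). Their log2 differences on the locus scale ran from -0.63 to 0.39. None of the 31 fragments passed the edgeR test per table total (0, and 0 at an unadjusted p under 0.05; 0 by DESeq2), where 2.06% of 1407 did, and 0 passed on the locus scale, where 7.53% did.

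None of the 9 element pairs with Hba-x passed from alpha CTCF per table total, and 0.0% of all 37 element pairs did. R1 took 2.60% ± 1.15 of the local partners in erythroid and 2.64% ± 1.34 in ES cells, and R2 1.52% ± 0.507 and 2.01% ± 0.867. Among 31 partner bins 0 passed the edgeR test per table total (3 at an unadjusted p under 0.05; 0 by DESeq2), where 2.31% of 909 bin pairs did.

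Against its flanks, the partners of Hba-x from alpha CTCF again differed in the bin of Hba-a2. It took 4.39% ± 0.265 of the Hba-x and 34.9% ± 6.51 of the flank partners in erythroid cells. The ES shares were 2.06% ± 1.85 and 27.5% ± 3.30. The log2 difference was -2.98 (SE 0.46) in erythroid and -3.93 (SE 0.51) in ES cells, and against the upstream flank alone it was -0.020 and -0.63, with no call (edgeR adjusted p = 0.982 and 0.974). Of 34 bins, 2 passed in each cell type (5.88% each) and 0 for the difference between them (0.0%, edgeR; 0 at an unadjusted p under 0.05). The others were the bin at -15.5 kb from the viewpoint in erythroid cells (log2 3.20, SE 0.75, edgeR adjusted p = 6.34e-04) and that at -10.5 kb in ES cells (log2 1.66, SE 0.53, edgeR adjusted p = 0.0368). As from R2, the large flank share of the Hba-a2 bin lowers the flank shares of all other bins, these included. The Hba-a2 bin lost its erythroid call without erythroid replicate 3 (edgeR adjusted p = 0.0629), and the number of bins called in either cell type, 3, was 1 when any single erythroid replicate was left out.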

How the data were processed

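Tri-C libraries of 10 erythroid and 7 ES samples were analysed from tables deposited by the authors, in which each value is a read count of a pair of NlaIII fragments seen together with the viewpoint. Trim Galore, Bowtie and build mm9 are named, per the submitters' processing notes, with no version or role; no source used here says whether duplicates were removed. All columns of both tables matched a sample.

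Counts of technical replicates were summed into 3 biological replicates per cell type. A fragment was placed by its midpoint, and a contact pair counted once per 5 kb bin. Named elements were 3 kb windows placed by their usual names in kb from Hba-x, with Hba-x 26 kb from the R2 centre. Bins, fragments and flank partners needed 50 counts over all replicates, and bin or element pairs 30. Each family was fitted over the whole table within 150 kb of the viewpoint with edgeR 4.0.16 in R 4.3.3. The tests were quasi-likelihood tests with Benjamini-Hochberg adjustment and a threshold of 0.05. Library size was the table total or, beside it, the pairs within 150 kb. For flank partners it was instead the partner counts of the Hba-x window or of the flanks. Those fits had the biological replicate as block, and leaving it out was an alternative. Ratios, parts and shares were compared by exact two-sided permutation tests over replicates (scipy 1.17.1), which cannot go below 0.1 here. Python 3.11.15, numpy 2.4.6, pandas 2.3.3 and matplotlib 3.10.9 were also used, and the scripts were tested on simulated data.

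The window, elements and lists were chosen with earlier results of these data known. Text names the window, its flanks and elements, the 5 fragments with the most counts, up to 5 partner bins per direction among calls without overlap between groups (on either scale), the leading fragment pairs, and the 3 bins most like Hba-x in level (log2 with a pseudocount of 0.5). Alternatives were other scalings (chromosome, TMM), DESeq2 1.42.0, no filter, a replicate block, each fragment pair counted once, a 3 kb window, single flanks, and leaving out replicates or first technical replicates. Leaving out pairs of neighbouring fragments, and the alternatives on the 150 kb scale, were chosen after seeing the data.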

Additional observations from a re-analysis of the deposited data

How the results depend on the processing

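The R2 level of Hba-x per table total (-0.13) changed sign with every other scaling: 0.90 by pairs within 150 kb, 0.95 by the chromosome, 1.74 with TMM and 2.06 with DESeq2; without single replicates it ran from -0.34 to 0.022. Per pairs within 150 kb it kept its direction and its call in all 12 alternatives, between 0.78 and 1.01. Fragments called from R2 per table total (0) became 12 by pairs within 150 kb or by the chromosome, 25 with TMM or DESeq2 and 2 with each fragment pair counted once, and 0 to 2 without single replicates. Beyond the table total and the pairs within 150 kb, shares over all fragments, bin pairs or element pairs were not worked out. The 12 on the locus scale became 23 with each pair counted once, 3 without first technical replicates and 4 to 10 without single replicates. Partner bins called from R2 (6) became 10 with DESeq2 and 2 to 6 without single replicates; on the locus scale 9 became 4 without first technical replicates and 2 to 9 without single replicates. Element pairs from R2 (0) became 1 by pairs within 150 kb and 2 by the chromosome; on the locus scale 1 became 4 with each pair counted once, 2 without neighbouring fragments and 0 to 1 without single replicates.

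Flank partners called from R2 (2) became 0 with the upstream flank alone, 7 with the downstream flank alone, 1 without a filter, 1 without first technical replicates and 1 to 7 without single replicates; from alpha CTCF, 3 became 0 with the upstream flank alone and 1 to 4 without single replicates. The Hba-a2 bin from R2 in erythroid cells turned to 0.68 against the upstream flank alone. With that flank alone the ratio of Hba-x to its flanks differed by 0.091 from R2, and R2 minus alpha CTCF by 0.33.

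The alpha CTCF level (0.0004) had no stable sign: -0.0016 by the chromosome, -0.019 without first technical replicates, -0.019 without neighbouring fragments, -0.042 with a 3 kb window and -0.22 to 0.20 without single replicates; on the locus scale the last ran from -0.085 to 0.19. Partner bins from alpha CTCF were 0 to 1 without single replicates on either scale. On the locus scale, without single replicates, the pair with R1 ran from -0.37 to 0.84, with Hba-a1 from -0.58 to 0.50 (-0.83 without first technical replicates) and with Hba-a2 from -0.15 to 1.09 (-0.0064 without first technical replicates). Fragment 32176863 to 32177016 ran from -0.10 to 0.31 (-0.18 without first technical replicates, -0.017 without neighbouring fragments) and 32178845 to 32178962 from -0.20 to 0.24 (-0.34 without first technical replicates). Differences in percentage points of the class within the Hba-x window ran from -6.73 to 6.37 without single replicates from R2 (0.27 without neighbouring fragments). From alpha CTCF that class ran from -4.49 to 7.22 (-3.42 each pair once, -2.93 without first technical replicates, -1.35 without neighbouring fragments), partners within 150 kb from -6.27 to 1.36 (0.76 each pair once, 1.33 without first technical replicates) and elsewhere on the chromosome from -3.02 to 1.46 (0.46 each pair once, 0.28 without neighbouring fragments). The causes were not tested.

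Deviations of same-numbered replicates had correlations of -0.11, 0.14 and 0.22 from R2 over 60 bins. From alpha CTCF they were 0.43, -0.20 and -0.17. These had no shared sign and the labels state no pairing, so the main comparison of cell types did not pair by number. Such correlations cannot tell whether same-numbered samples shared a batch. With the replicate block the R2 level was -0.15 per table total and 0.91 per pairs within 150 kb, and the alpha CTCF level -0.043. Partner bins from R2 became 2 per table total and 3 on the locus scale, and element pairs 0 on the locus scale.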
